A study of Caenorhabditis elegans with 2 samples.

Results

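Translation factors and aminoacyl-tRNA synthetases form the 2 gene groups described here, as carriers of peaks of the nuclear hormone receptor NHR-120 on the genome of Caenorhabditis elegans. Members were picked by gene symbol: 39 protein-coding genes named eif-, eef-, iff-, ife- or ifg- and a number, and 31 synthetase genes named by 1 letter and ars-1 or ars-2, so 70 of the 19973 protein-coding nuclear genes in the WBcel235 annotation. For each gene the ranked peak with the highest signal was taken whose summit lay within 1 kb of the start of any of its transcripts. Distances are to the nearest transcript start of the gene, which for some genes is internal, and the distance to the gene's outermost start is added where it differs for a peak described with its distance. Signal is the authors' own value per peak, on a scale that is not stated.

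The data came from chromatin immunoprecipitation with sequencing of whole young adult worms at 64 hours, in 1 group of 2 biological replicates. Strain OP415 carries the transgene wgIs415, in which nhr-120 is fused to TY1, EGFP and 3xFLAG, together with unc-119(+), and the unc-119(tm4063) mutation. Worms were synchronised by bleaching and starvation at the first larval stage, and an antibody to GFP was used on sonicated chromatin. The design has no second genotype or treatment, and a control experiment named as possible in the labels was not analysed here. The lists hold no read counts, so the depth behind each value is unknown. The antibody field of the labels names nhr-120 itself. All tissues are pooled in a whole worm, so a peak present in a few cells and a weak peak in many cannot be told apart. The joint ranked list holds 115573 peaks, of which 707 (0.612%) had a global irreproducible discovery rate (IDR) of at most 0.01. The IDR is low where a peak ranks both high and alike in the compared lists. The authors' thresholded lists keep the peaks that passed their limit on the IDR, 610 in the joint list. The replicates' own ranked lists hold 60719 (replicate 1) and 58785 (replicate 2) peaks. A ranked peak near a gene is therefore not by itself a bound site, and 17792 of the 19973 genes have one within 1 kb.

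Initiation factors bring the messenger RNA, the initiator tRNA and the ribosomal subunits together, with eIF4E binding the cap, eIF3 holding the small subunit and eIF2 delivering the initiator tRNA. Elongation factors then carry charged tRNAs to the ribosome and move it along the message, and eIF5A helps it through sequences that stall it. Aminoacyl-tRNA synthetases attach each amino acid to its tRNA. NHR-120 is one of the many nuclear hormone receptors of this worm, proteins that bind DNA through zinc fingers.

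Of the 70 genes, iff-2 was the one with a peak of the authors' joint thresholded list within 1 kb. A second site lay just beyond that limit, 1044 bp upstream of eif-3.G, and carried the highest thresholded signal within 2 kb of any of the 70 genes. The sequences of these and of other peaks that the results below turn on are shown here from the WBcel235 genome (ce11), 5′ to 3′ on the strand of the named gene except for eif-3.G. Capitals mark the 21 bases centred on the summit, cut at the end of the shown stretch, and stretches in untranslated regions were left off. The iff-2 stretch is shown because it lies just before the start of the gene (chrII:8561368-8561568, minus strand), the ife-1 stretch as the second highest factor, in its coding exon (chrIII:13343826-13344055, plus strand), the eif-2Bgamma stretch because it covers an snRNA gene (chrII:6968374-6968637, minus strand), and the gars-1 stretch as the synthetase summit nearest to a start (chrIII:5163628-5163758, minus strand).
iff-2: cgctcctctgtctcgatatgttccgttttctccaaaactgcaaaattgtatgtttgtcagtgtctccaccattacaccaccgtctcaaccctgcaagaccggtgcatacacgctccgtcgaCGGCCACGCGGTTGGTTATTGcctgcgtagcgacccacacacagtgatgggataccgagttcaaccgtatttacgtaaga
ife-1: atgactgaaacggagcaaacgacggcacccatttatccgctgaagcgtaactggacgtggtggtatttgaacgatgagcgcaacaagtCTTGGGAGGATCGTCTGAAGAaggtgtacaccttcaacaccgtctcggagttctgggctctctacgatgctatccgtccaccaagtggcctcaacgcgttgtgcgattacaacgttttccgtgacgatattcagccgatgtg
eif-2Bgamma: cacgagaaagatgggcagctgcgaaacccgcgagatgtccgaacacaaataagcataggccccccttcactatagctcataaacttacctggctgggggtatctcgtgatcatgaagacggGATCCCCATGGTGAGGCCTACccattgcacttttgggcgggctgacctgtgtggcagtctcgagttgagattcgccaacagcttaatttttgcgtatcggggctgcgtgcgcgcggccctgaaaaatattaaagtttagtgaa
gars-1: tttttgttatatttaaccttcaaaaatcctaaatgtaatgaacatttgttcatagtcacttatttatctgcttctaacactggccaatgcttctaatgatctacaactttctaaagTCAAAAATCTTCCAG

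The eIF5A genes gave the highest and a middling value. iff-2, which encodes an eIF5A, had a peak at chrII:8561305-8561568 with its summit 70 bp before the gene's start, in no annotated gene. Its signal was 96.1 in the joint list, which ranks it 178th of 115573 peaks and 57th of 17792 genes, with a global IDR of 0.00124. At this peak the signal was 36.6 in replicate 1 and 55.9 in replicate 2, and the peak passed the authors' own threshold for replicate 2 and not for replicate 1. It was in the conservative joint list as well. The snoRNA gene F54C9.12 lies inside iff-2, on the same strand and between 595 and 676 bp from the gene's start, so the summit lay 665 bp before the start of the snoRNA gene. A second coding gene, F54C9.14, starts 865 bp away on the other strand. The other eIF5A gene, iff-1, had a signal of 37.9, with its summit in its coding exon, 67 bp after a transcript start and 656 bp after the gene's outermost start. Its peak had a signal of 19.7 in replicate 2 and no overlapping ranked peak in replicate 1.

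The single call stood near the background share. Of 39 translation factor genes, 1 (2.56%) had a thresholded summit, and of 31 synthetase genes none did, against 1.93% of the 17792 protein-coding genes with any ranked summit nearby. A count of 0 of 31 allows a share of up to roughly 9.68%, so a share near the background would not have been detectable for the synthetases. The conservative list called iff-2 alone among the 70, against 1.74% of genes. The list of replicate 1 called none of the 33 factors and 25 synthetases with a ranked summit in that replicate, against 0.305% of genes. The list of replicate 2 called iff-2 among 32 factors and none of 22 synthetases, against 0.333% of genes. By a global IDR of at most 0.01, a limit chosen after seeing the data, iff-2 was again the single member, 1 of 39 factors and none of the synthetases, against 1.92% of genes.

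**Figure D1:**
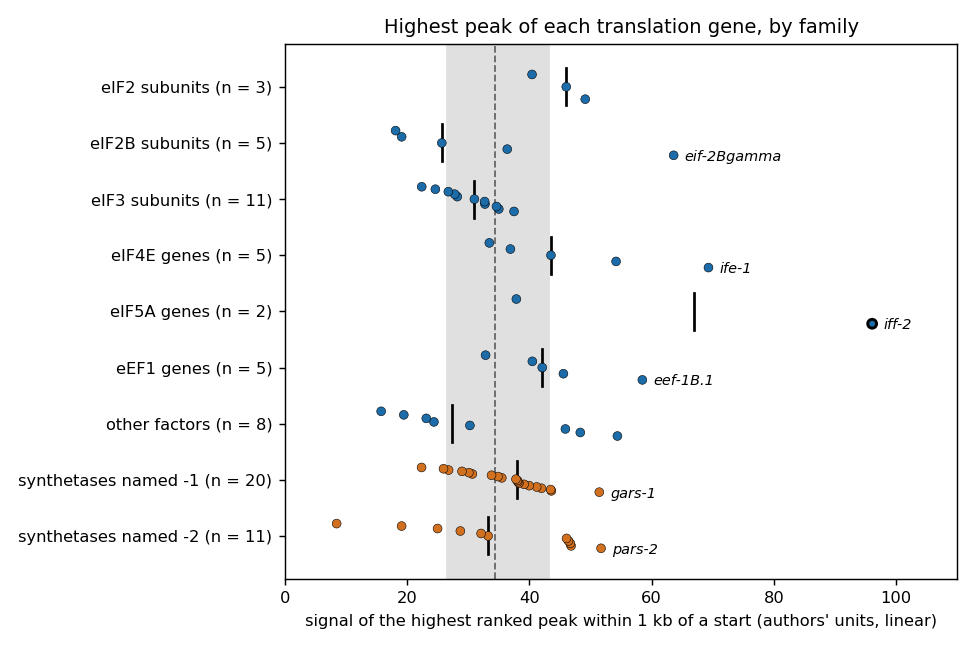
Signal of the highest ranked peak within 1 kb of a start for each of the 70 genes (points, linear axis in the authors' units), by family, with translation factors in blue and synthetases in orange; black bars are family medians, and the dashed line and grey band are the median (34.4) and quartiles (26.5 and 43.3) of all protein-coding genes. The heavy outline marks iff-2, the single gene with a thresholded peak, and the 11 genes named eif-3 lie between 22.4 and 37.5.

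Among the eIF4E genes, whose products bind the messenger RNA cap, ife-1 had the highest signal. The ife-1 peak (chrIII:13343792-13344055) had a signal of 69.3 in the joint list, 32.8 in replicate 1 and 33.3 in replicate 2, with the summit in its coding exon and a global IDR of 0.0251. That summit lay 100 bp after an internal transcript start and 507 bp after the gene's outermost start. IFE-1 is known from germline P granules in this worm. The ife-3 peak (chrV:6908-7171) had a signal of 54.2 in the joint list, against an unequal 14.3 in replicate 1 and 36.2 in replicate 2, with the summit in its coding exon, 782 bp after a transcript start and 788 bp after the outermost one. The other eIF4E genes, given to complete the family, were ife-5 (43.5), ife-4 (36.9) and ife-2 (33.4), and 4 of the 5 lay above the median of all genes, 34.4. The ife-2 summit, 971 bp into the gene and in an intron, lay 747 bp before the start of the microRNA gene cel-mir-800.

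Subunits of eIF2, eIF2B and eIF3 differed in level, with no test made between families. Their windows also differed, with a median of 5 ranked summits for eIF2, 2 for eIF2B and 3 for eIF3. The highest of several values grows with their number, and its part in these levels was not tested. The 3 eIF2 subunits had signals of 49.1 (eif-2beta), 46.0 (eif-2alpha) and 40.4 (eif-2gamma), all above the median of all genes. The eif-2beta summit lay 153 bp before the start, in the exon of a non-coding RNA gene named K04G2.15, with signals of 29.97 in replicate 1 and 24.1 in replicate 2 and a global IDR of 0.0303. The 11 genes named eif-3 encode subunits of eIF3, the scaffold on the small ribosomal subunit. Within 1 kb their signals ranged from 22.4 (eif-3.H) to 37.5 (eif-3.D). Their median was 31.0, and 3 of the 11 exceeded the median of all genes. Any eIF3 gene under another symbol was outside this count. One such gene, egl-45, is in the list of other genes of translation below and was named after its value was seen. Its signal was 46.2 in the joint list (percentile 81.2), above all 11 genes named eif-3. It had a signal of 25.2 in replicate 1 and no overlapping ranked peak in replicate 2. The range and median given here therefore describe the genes named eif-3 and not every eIF3 gene. The eIF2B subunits, which recharge eIF2 with GTP, ranged from 18.1 (eif-2Balpha) to 63.6 (eif-2Bgamma), with eif-2Bepsilon at 19.1. The lowest factor was eif-1, a factor in start codon selection, with a signal of 15.8 and no overlapping ranked peak in either replicate. The eif-2Balpha peak likewise overlapped none, and the eif-2Bepsilon peak had a signal of 4.09 in replicate 1 and none in replicate 2.

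The peak assigned to eif-2Bgamma (chrII:6968374-6968637) lay on a short RNA gene, not at the start of the factor gene. Its summit was 858 bp before the start of eif-2Bgamma and 52 bp into the snRNA gene sup-39, also in an exon of the non-coding RNA gene C15F1.14, with an overlapping entry named mir-1831 that the annotation also classes as snRNA. The joint signal was 63.6 and the global IDR 0.0160, while the replicates gave unequal values of 14.7 in replicate 1 and 49.8 in replicate 2. Of its 30-base words, 42.1% occur more than once in the genome. Whether reads of other copies were placed there was not tested.

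Elongation factor genes of the eEF1 complex ranged from 32.8 (eef-1A.1) to 58.5 (eef-1B.1) within 1 kb. The eef-1B.1 peak (chrIII:7973961-7974224) lay 707 bp before that gene, in an intron of its neighbour aco-2 and 252 bp from the start of aco-2. It had a signal of 31.6 in replicate 2 and no overlapping ranked peak in replicate 1. At eef-1G, whose summit lay 225 bp after an internal transcript start and 479 bp after the gene's outermost start, the snoRNA gene F17C11.15 starts 500 bp further on. The signal there was 42.1 in the joint list, 31.1 in replicate 1 and 14.1 in replicate 2. At eef-1A.1, which encodes eEF1A, the summit lay 269 bp before the gene and 38 bp into the microRNA gene cel-mir-5549, with a signal of 13.7 in replicate 1 and none in replicate 2. Outside these families, eif-6, whose product keeps the ribosomal subunits apart, had a signal of 54.4, but its summit lay 959 bp upstream in the coding exon of the proteasome gene pbs-2. The eef-2 peak, at the gene for the factor that translocates the ribosome, had a signal of 48.3 in the joint list, 16.0 in replicate 1 and 36.1 in replicate 2, with its summit in its coding exon, 99 bp after an internal transcript start and 550 bp after the outermost one.

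Thresholded peaks were found near 4 further members when the limit was widened. Within 2 kb, 4 of 39 factors and 1 of 31 synthetases had a thresholded summit, against 3.22% of the 18407 protein-coding genes with a ranked summit at that distance. The added genes, named after their values were seen, were eif-3.G, eef-1A.1 and eef-1B.2 among the factors and fars-1 among the synthetases. Just inside the limit of 1 kb lay the peaks of ife-2 at 971 bp with a signal of 33.4 and of iars-1 at -967 bp with 38.3, and just outside it those of pars-1 at -1007 bp with 29.5, eif-2gamma at 1008 bp with 46.9 and nars-1 at -1013 bp with 34.9. The highest peaks inside the limit had signals of 39.1 at pars-1, 40.4 at eif-2gamma and 28.98 at nars-1. For 20 of the 56 members with a ranked summit between 1 and 1.5 kb, the first such peak was higher than the highest one inside. The same share was not computed over all protein-coding genes, so this count cannot be read as particular to the members.

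The peak upstream of eif-3.G (chrII:8441591-8441854) had a signal of 162 in the joint list, which ranks it 47th of 115573 peaks, with 69.3 in replicate 1 and 94.4 in replicate 2. It was in both replicates' own thresholded lists and in the conservative list. Its summit lay 1044 bp before the nearest annotated start, that of eif-3.G, in an intron of the neighbouring lipase-related gene lips-10, with no short RNA gene start of the annotation within 1 kb. On the strand opposite to eif-3.G the peak holds a pair of words like the internal promoter boxes of tRNA genes, shown here in capitals (chrII:8441591-8441854, minus strand, 264 bases).
eif-3.G upstream peak: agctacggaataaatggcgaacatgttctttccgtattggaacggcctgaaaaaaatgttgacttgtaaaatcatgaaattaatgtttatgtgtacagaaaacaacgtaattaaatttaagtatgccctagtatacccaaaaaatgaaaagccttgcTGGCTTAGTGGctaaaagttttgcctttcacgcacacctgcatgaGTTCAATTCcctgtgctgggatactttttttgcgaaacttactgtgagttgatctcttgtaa
The A box word stands at position 158 of this stretch, counted from 1 at its 5′ end, and the B box word GTTCNANNC at position 203, and a run of 7 T follows 15 bases after the second word. Both words were chosen after this sequence was read, and were searched on both strands in 264-base windows around the summits. The highest peaks within 1 kb were searched for the coding genes. Both short words occurred in 119 (22.1%) of the highest ranked peaks within 250 bp of 538 tRNA gene starts, in 1 of the 39 factor peaks (eif-2Bepsilon), in 0 of the 31 synthetase peaks and in 0.652% of the peaks of all protein-coding genes. Taken alone, the A box word was in 24.5% of these tRNA gene peaks and in 2.69% of the peaks of all protein-coding genes. The B box word alone was in 87.5% and 10.9%. A match describes the letters and does not show a transcribed gene.

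**Figure D2:**
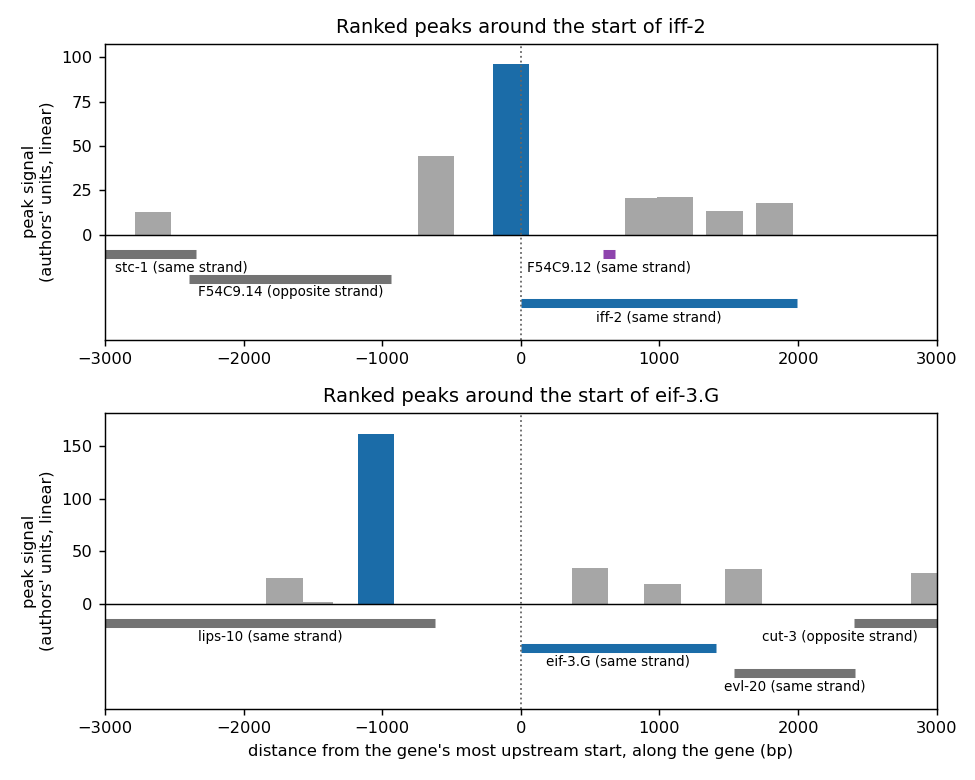
Ranked peaks of the joint list within 3000 bp of the most upstream starts of iff-2 and eif-3.G, with distance along the gene in bp on the x axis and signal (authors' units, linear) as bar height; blue peaks are in the thresholded list, grey ones are not, and gene bodies are drawn below with iff-2 or eif-3.G in blue, other coding genes in grey and the snoRNA gene F54C9.12 in purple. The blue peak of 96.1 stands at the start of iff-2, and the blue peak of 162 stands over the end of lips-10 and short of eif-3.G.

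The 3 other thresholded peaks between 1 and 2 kb lay inside the member genes, but at all 3 the nearest annotated start was that of another gene. The eef-1A.1 summit lay 970 bp after the start of the coding gene F31E3.12. The eef-1B.2 summit lay 595 bp before the start of the coding gene hrpu-1. At eef-1A.1 the peak (chrIII:6970228-6970491) was in the coding exon 1352 bp from the start, with a signal of 75.6 in the joint list, 38.7 in replicate 1 and 31.1 in replicate 2. Of its 30-base words, 25.96% occur more than once in the genome, and eef-1A.2 encodes a near-identical protein. Whether reads were split between the copies was not tested. Within 1 kb, eef-1A.2 had a signal of 45.6 with its summit in a coding exon and 18.7% repeated words. At eef-1B.2 the summit was in a coding exon, 1680 bp after a transcript start and 1690 bp after the outermost one, with a signal of 66.5 in the joint list, 30.3 in replicate 1 and 36.4 in replicate 2. At fars-1 the summit, 1392 bp after an internal transcript start and 1861 bp after the gene's outermost start, fell on the first base of the snoRNA gene T08B2.13, with a signal of 79.4 in the joint list, 45.03 in replicate 1 and 33.1 in replicate 2. None of these 3 peaks was in a replicate's own thresholded list, and the fars-1 peak was in the conservative list.

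**Figure D3:**
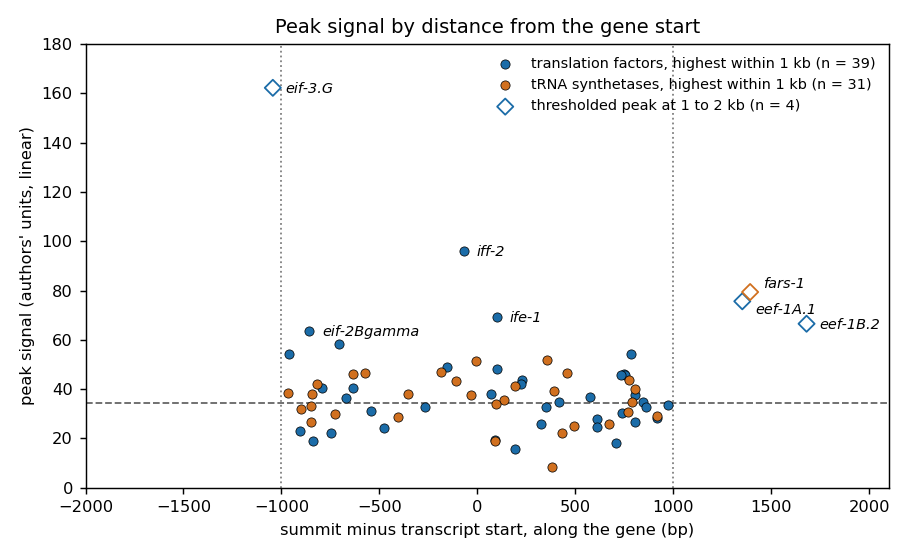
Signal (authors' units, linear) against the distance of the summit from the nearest transcript start in bp, negative upstream, for the highest ranked peak within 1 kb of each factor (blue, n = 39) and synthetase (orange, n = 31); open diamonds are thresholded peaks between 1 and 2 kb, dotted lines mark 1 kb and the dashed line is the median of all protein-coding genes, 34.4. The diamond of eif-3.G at -1044 bp stands above all other points, and iff-2 at -70 bp is the highest inside the limit.

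No synthetase reached the upper 10% of genes by signal. The highest were pars-2 (51.7), for prolyl-tRNA, and gars-1 (51.4), for glycyl-tRNA, at percentiles 89.0 and 88.7 of all genes. The pars-2 peak (chrI:12490457-12490720) lay in an intron of pars-2, with its summit 15 bp before the start of T27F6.6. That summit lay 354 bp after an internal transcript start of pars-2 and 3645 bp after the gene's outermost start. The signals at this peak were 35.3 in replicate 1 and 17.3 in replicate 2. The gars-1 summit lay 5 bp before the start of the gene, with a signal of 36.2 in replicate 1 and no overlapping ranked peak in replicate 2. Next came rars-2 (46.8), sars-2 (46.7), iars-2 (46.4), yars-2 (46.1), vars-1 (43.6) and qars-1 (43.5), for arginyl-, seryl-, isoleucyl-, tyrosyl-, valyl- and glutaminyl-tRNA. Of these 6, rars-2 had the higher value in replicate 2 (28.6, against 15.2 in replicate 1), iars-2 and qars-1 were higher in replicate 1, and sars-2, yars-2 and vars-1 had no overlapping peak in replicate 2. The rars-2, iars-2 and yars-2 summits lay in exons of other genes, C29H12.2, C25A1.16 and miro-1. The sars-2 and vars-1 summits lay in their own coding exons. The qars-1 summit lay in its own intron, 109 bp before an internal transcript start and 2093 bp after the outermost one. The lowest were cars-1 (22.4), aars-2 (19.1) and dars-2 (8.47), none of which overlapped a ranked peak of either replicate. None of the 31 highest peaks had a tRNA, snoRNA, snRNA, rRNA or microRNA gene start within 1 kb, while 5 of 39 factor peaks did (12.8%), against 2.79% of the peaks of all protein-coding genes. Those 5 belong to iff-2, eif-2Bgamma, eef-1G, ife-2 and eef-1A.1, described above, and the part of the short RNA genes in these values was not tested.

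By signal both groups lay near the middle of all genes. The factors had a median of 34.99 (percentile 51.8) and the synthetases of 37.8 (percentile 60.8), against 34.4 for all protein-coding genes. Above that all-gene median were 21 of 39 factors (53.8%, exact 95% interval 37.2 to 69.9%) and 18 of 31 synthetases (58.1%, 39.1 to 75.5%), against 50% of all genes by construction. The intervals cover the counting of genes alone. The upper 10% of genes held 6 factors (15.4%) and none of the synthetases. A highest peak with a global IDR of at most 0.05, a limit chosen after seeing the data, was found at 5 factors (12.8%) and at none of the synthetases, against 7.59% of genes. These 5 were iff-2, ife-1, eif-2Bgamma, eef-1B.1 and eif-2beta. Genes had a median of 3 ranked summits in the window in both groups and over all genes, and the highest of several values grows with their number. The median number of transcript starts was 2 for synthetases, against 1 for factors and for all genes. Among the 8 highest synthetases the summits in the window ran from 2 (iars-2) to 11 (qars-1), with 10 at pars-2 and 7 at gars-1. No set test was made.

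**Figure D4:**
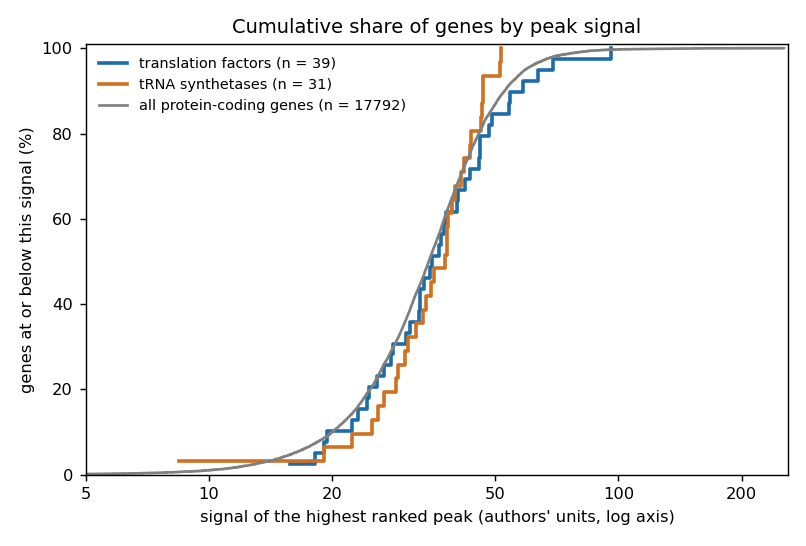
Cumulative share of genes (%, y axis) at or below each signal of the highest ranked peak (authors' units, log x axis) for translation factors (n = 39), tRNA synthetases (n = 31) and all protein-coding genes (n = 17792). The 3 curves run close together, the synthetase curve ends at 51.7, and the factor curve reaches 96.1 at iff-2.

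The height of these peaks differed between the replicates. A ranked peak of replicate 1 overlapped 27 of the 39 factor peaks and 20 of the 31 synthetase peaks (64.5%), against 64.6% for all genes. A ranked peak of replicate 2 overlapped 26 of the factor peaks and 13 of the synthetase peaks (41.9%), against 64.6% for all genes. Both replicates had one at 20 factor peaks (51.3%) and 10 synthetase peaks (32.3%), against 43.0% for all genes. Neither replicate had one at 6 factor peaks (15.4%) and 8 synthetase peaks (25.8%), against 13.8% for all genes. When the highest peak was taken in each replicate's own ranked list, 68% of synthetases exceeded the all-gene median in replicate 1 and 36.4% did in replicate 2. Over the 30 members with both values, the Spearman correlation of the replicates' signals was -0.203, against 0.201 over 7650 genes. The points share libraries, and the joint peaks were selected for a high signal, so these values are descriptions across genes.

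**Figure D5:**
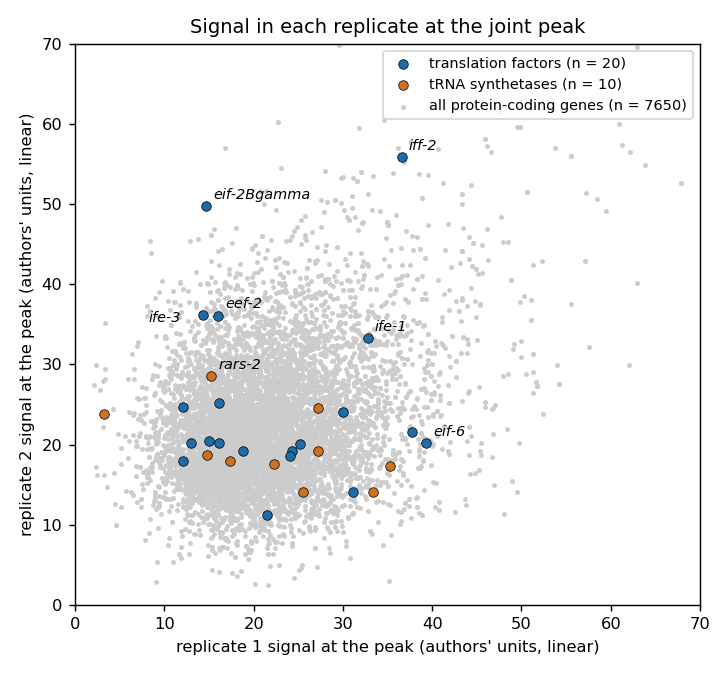
Signal of the overlapping ranked peak in replicate 1 (x axis) and replicate 2 (y axis), both linear in the authors' units, at the highest joint peak of each gene with a value in both, for 20 factors, 10 synthetases and 7650 protein-coding genes, of which 24 lie beyond the axes. iff-2 has 36.6 and 55.9 and ife-1 32.8 and 33.3, while eif-2Bgamma, ife-3, eef-2 and rars-2 have the higher value in replicate 2 and eif-6 has it in replicate 1.

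Most of the peaks of both groups lay in gene bodies. The summit was in an annotated exon at 28 of 39 factors (71.8%) and 19 of 31 synthetases (61.3%), against 50.8% for all genes, and between genes at 3 factors (7.69%) and 3 synthetases (9.68%), against 26.4%. The median distance to the start was 672 bp for factors and 491 bp for synthetases, against 475 bp for all genes. The nearest coding start was the gene's own at 28 factors (71.8%) and 22 synthetases (71.0%), against 87.0% of genes. GC content in the 264 bases around the summit had a median of 42.8% for factors and 37.9% for synthetases, against 39.4% for all genes. More than 10% of 30-base words were repeated at 4 factors and 4 synthetases, the highest being tars-1 with 73.6%, a gene named after its values were seen, against 11.95% of all genes. None of these differences was tested.

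Few of the peaks held the motif words searched. A longer, stricter form of the B box word, which contains the short one, was in none of the 70 windows, against 0.916% of all genes. The nuclear receptor half-site AGGTCA was in 4 factor windows (10.3%) and 2 synthetase windows (6.45%), against 7.35% of all genes. The genes, some named after their values were seen, were ife-4, ifg-1, eif-2Bgamma and eef-1A.1 among the factors and sars-1 and sars-2 among the synthetases. TATAAA was in 4 factor windows (10.3%) and 3 synthetase windows (9.68%), against 20.6% of all genes. Both strands were searched, and absence says only that these letters are not in the window. The iff-2 window held none of the 3 words.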

How the data were processed

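Peaks were analysed from 8 deposited peak lists on ce11 of 2 biological replicates (1 group), per the deposited file descriptions. The authors deposited a signal value for each peak, of unstated scale, and in the ranked lists the −log10 of the global IDR. The IDR is low where a peak ranks both high and alike in the compared lists. The joint lists were made from the alignments of both replicates with 1 further input of unstated role, per the deposited file descriptions. The aligner and the peak caller were not stated there. No depth per sample can be given.

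Genes and transcripts were those of Ensembl 115 (WBcel235, the ce11 assembly) and sequence from the RefSeq copy of WBcel235. From these the summit distances, highest signals and percentiles over genes, 264-base windows and 30-base word repeats were computed with Python 3.11.15, pandas 2.3.3 and numpy 2.4.6. Intervals are exact binomial ones (scipy 1.17.1). The upper share given with a count of 0 is an approximation, 3 divided by the number of genes. A sequence match needed every letter. A replicate's value is its highest ranked peak overlapping the joint peak by at least 1 bp. The assignment of peaks to genes was tested on simulated data. Members and lists were chosen with earlier results of these data known, so no test was made. Named genes are those with a thresholded summit, the 8 highest and 3 lowest of each group, and those with a short RNA gene at the peak. Members outside this rule were named after their values were seen: those that complete a family or its range (iff-1, ife-4, ife-5, eif-2alpha, eif-2gamma, eif-3.D, eif-3.H), the window's edge (iars-1, nars-1, pars-1, eif-2gamma), the eef-1A.1 paralog eef-1A.2, and those so marked in the text. No members share a peak. Alternatives changed the window, list, starts, replicates, threshold and background.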

Additional observations from a re-analysis of the deposited data

How the results depend on the processing

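The count of translation factor genes with a thresholded summit, 1 of 39, became 4 with a 2 kb window, 0 without peaks near short RNA genes (iff-2 has a snoRNA gene within 1 kb) and 5 when a global IDR of at most 0.05 was used, a setting chosen after seeing the data. Leaving out 1 replicate gave 0 to 1, with 0 in the list of replicate 1 alone. The synthetase count of 0 became 1 with a 2 kb window. The share of synthetases above the all-gene median, 58.1%, ranged from 36.4 to 68% when 1 replicate was left out, and the 36.4%, from replicate 2 alone, is the value below the main interval. The other alternatives gave the same count or a share inside the main interval. No paired analysis was possible because the series has 1 group. Depth is unknown, so no value can be weighed by it, and the main intervals of the shares above the median, 37.2 to 69.9% for 39 factors and 39.1 to 75.5% for 31 synthetases, set what groups of this size can show.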

Other observations

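Other genes of translation, a list of 37 symbols for release factors, mitochondrial elongation factors, ribosome-associated ATPases, poly(A)-binding proteins and regulators such as the TOR pathway, gave no thresholded summit. Of the 35 symbols found in the annotation (iftb-1 and etrf-1 were not), 33 had a ranked summit within 1 kb, and ncbp-1 and abce-1 had none. A count of 0 of 33 allows a share of up to roughly 9.09%, against 1.93% of all genes. Their median signal was 38.6, against 34.4 for all protein-coding genes, and 21 of 33 (63.6%) lay above the all-gene median. The highest were pab-2, a poly(A)-binding protein gene, with 60.6 (27.6 in replicate 1 and 31.4 in replicate 2), larp-1 with 58.2 (24.6 in replicate 1 and 35.8 in replicate 2) and inf-1, which encodes eIF4A, with 52.8 (27.0 in replicate 1 and 33.1 in replicate 2). The lowest was erfa-1, a release factor gene, with 13.4.

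Ribosomal protein genes, the other large gene group of translation, stood higher in the same list: 78 genes with a median signal of 43.3 (percentile 75.1), 61 of them (78.2%) above the all-gene median and 9 (11.5%) with a thresholded summit, against 1.93% of all protein-coding genes. The difference from the 2 groups described above was not tested. At 14 of the 78 (17.9%) the highest peak had a short RNA gene start within 1 kb, against 2.79% of the peaks of all protein-coding genes, and the part of these starts in the values was not tested.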
